A study of Mus musculus with 15 samples.

Results

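Heat shock proteins of the mitochondrion and the cytosol were examined in hearts of mice that lack MAT1 in cardiomyocytes. MAT1 is the product of Mnat1 and holds together the kinase module of the general transcription factor TFIIH. The 8 genes listed were Hspd1, Hspe1, Hspa9, Hspa8, Hspa1b, Hsp90aa1, Hsp90ab1 and Hspb1, and their members on the array were the probe sets that the platform annotation assigns to exactly 1 of these symbols. That gave 9 of 12422 probe sets for 7 of the 8 genes; Hspd1 and Hsp90aa1 had 2 probe sets each, and Hsp90ab1 had no probe set of this kind and was not analysed here. The list was not set by a threshold on measured values.

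Each of the 15 arrays measured total RNA of whole heart. Knockout hearts carried αMHC-Cre+/0 with MAT1F/F, so that Cre under the cardiomyocyte-specific α-myosin heavy chain promoter removed both floxed alleles, and control littermates carried the same αMHC-Cre+/0 with MAT1F/+, which leaves 1 wild-type allele. There were 3 control and 4 knockout arrays at 2 weeks of age, and 3 control and 5 knockout arrays at 4 weeks. All groups therefore share Cre expression, and only cardiomyocytes recombine, so other cells of the heart keep MAT1. The labels number the samples of a group but do not say that each came from a separate mouse; p-values then measure only the spread between these samples. In whole hearts, fewer cells of a type and less RNA per cell cannot be told apart.

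Mitochondrial precursor proteins are imported unfolded. Inside the matrix, mortalin (Hspa9), the mitochondrial Hsp70, pulls them through the inner membrane, and the chaperonin Hsp60 (Hspd1) with its lid Hsp10 (Hspe1) encloses and folds them; the heart, densely packed with mitochondria, expresses all 3 genes strongly. In the cytosol, Hsc70 (Hspa8) is the constitutive Hsp70, while Hspa1b and its near-identical neighbour Hspa1a encode the stress-inducible Hsp70. Hsp90α (Hsp90aa1) is the inducible form of Hsp90, which matures kinases and steroid receptors with a set of co-chaperones, and Hsp27 (Hspb1) is a small heat shock protein that holds unfolding proteins. Under proteotoxic stress, heat shock factor 1 binds repeats of the motif GAA in alternating orientation and activates many of these genes.

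The arrays fell into 2 sets that the labels do not name. Correlations over all probe sets were at least 0.937 within a set and at most 0.924 between the sets. Set 1 held 6 arrays (control 4 weeks replicate 1, knockout 4 weeks replicates 1 and 2, control 2 weeks replicate 3, knockout 2 weeks replicates 3 and 4) and set 2 held the other 9, so each set contained every group. The sets shifted some members more than others: set 1 minus set 2 was -0.86 on the log2 scale for Hspa9, -0.70 for Hsp90aa1, -0.68 for Hspe1, 0.38 for Hspa1b, 0.09 for Hspd1 and -0.04 for Hspa8, against a median size of 0.44 over all tested genes. Results of the tested members at 4 weeks are therefore given over all arrays, then with the set entered as a blocking factor or within each set. Other results are given in this way only in part. Array medians ran from 173.7 to 216.8. By Xist and Uty, 4 of 5 knockout hearts at 4 weeks were female, against 1 of 3 controls at 4 weeks, 1 of 4 knockouts at 2 weeks and 1 of 3 controls at 2 weeks. The 2 probe sets for Mnat1 read 73.12 to 314.28 and 23.67 to 86.25 over all arrays, and neither differed between knockout and control hearts at 4 weeks (0.53 ± 0.47 SE, adjusted p = 0.726, and -0.03 ± 0.27, adjusted p = 0.994, limma). The position of these probes relative to the deleted segment is not known here, so they check no label.

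Upstream sequences in the mouse RefSeq assembly GRCm38.p6 were listed for 4 of the 8 genes (Hspd1, Hspe1, Hspb1 and Hspa1b). Hspd1 and Hspe1 lie head to head on chromosome 1 and are transcribed in opposite directions from starts 216 bases apart, Hspd1 on the minus strand from 55087932 and Hspe1 on the plus strand from 55088148 (another Hspd1 start is listed at 55088243). The segment between these starts is shown because both genes of the chaperonin share it. It is printed from the plus strand, and the capitals mark a run that matches TTCNNGAANNTTCNNGAA, an alternating heat shock element.

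Hspd1 and Hspe1, chr1:55087933-55088147: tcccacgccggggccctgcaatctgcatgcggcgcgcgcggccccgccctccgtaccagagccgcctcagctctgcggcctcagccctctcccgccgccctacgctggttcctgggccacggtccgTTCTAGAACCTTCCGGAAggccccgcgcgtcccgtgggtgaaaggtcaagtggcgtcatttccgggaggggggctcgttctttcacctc

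This match begins 89 bases upstream of the Hspe1 start and 144 bases upstream of the Hspd1 start. Matches to this 18-base motif were found in 5 of 32851 promoter windows of 250 bases before and 50 bases after a start, both strands searched, or 0.0152% of them. The Hspd1 and Hspe1 windows, in which the match covers the same bases, are both among these 5. The 13-base motif GAANNTTCNNGAA, which overlaps the 18-base motif, occurred in 0.603% of windows, and the 8-base motifs GAANNTTC and TTCNNGAA in 7.86% and 8.52%.

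The stress-inducible Hsp70 genes lie close together on chromosome 17, both on the minus strand, with starts at 34959238 for Hspa1b and 34972156 for Hspa1a. Their upstream 250 bases are shown because they differ at only 3 positions and because the transcripts are hard to tell apart on an array. Each is printed 5′ to 3′ from the minus strand, with the match to GAANNTTC in capitals.

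Hspa1b, chr17:34959239-34959488: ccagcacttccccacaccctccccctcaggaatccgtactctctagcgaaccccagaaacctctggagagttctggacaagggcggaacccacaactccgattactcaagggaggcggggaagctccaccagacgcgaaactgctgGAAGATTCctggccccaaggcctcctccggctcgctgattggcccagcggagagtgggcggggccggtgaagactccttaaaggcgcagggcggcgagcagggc

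Hspa1a, chr17:34972157-34972406: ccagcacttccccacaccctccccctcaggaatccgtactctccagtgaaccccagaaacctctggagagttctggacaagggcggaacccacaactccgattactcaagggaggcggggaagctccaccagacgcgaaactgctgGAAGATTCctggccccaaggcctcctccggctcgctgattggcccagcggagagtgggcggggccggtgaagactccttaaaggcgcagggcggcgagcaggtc

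In both windows the match begins 104 bases upstream of the start. Hspb1, on chromosome 5, had GAANNTTC matches beginning 117 and 97 bases upstream. A match describes the letters in the window and is not a measured binding site.

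The comparison of knockout with control hearts at 4 weeks asks what the loss of MAT1 in cardiomyocytes does to these transcripts at the older age. Hspd1 fell and Hspa1b rose, and neither showed any overlap between the 4-week groups. Hsp90aa1 was also higher on every 4-week knockout array, and Hspe1 and Hspa9 were lower on every 4-week knockout array than on every control array of the same set, a separation within both sets that 40.8% of all tested genes showed. These 3 differences did not pass over all 15 arrays and passed with the array set as a block. Hspa8 did not pass in either fit. Intensities are linear and in arbitrary units, differences are on the scale of log2(intensity + 16), and a gene was called at a Benjamini-Hochberg adjusted p under 0.05 over 4950 tested genes in limma. Intensities of different genes come from different probes and are not compared with each other.

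**Figure D1:**
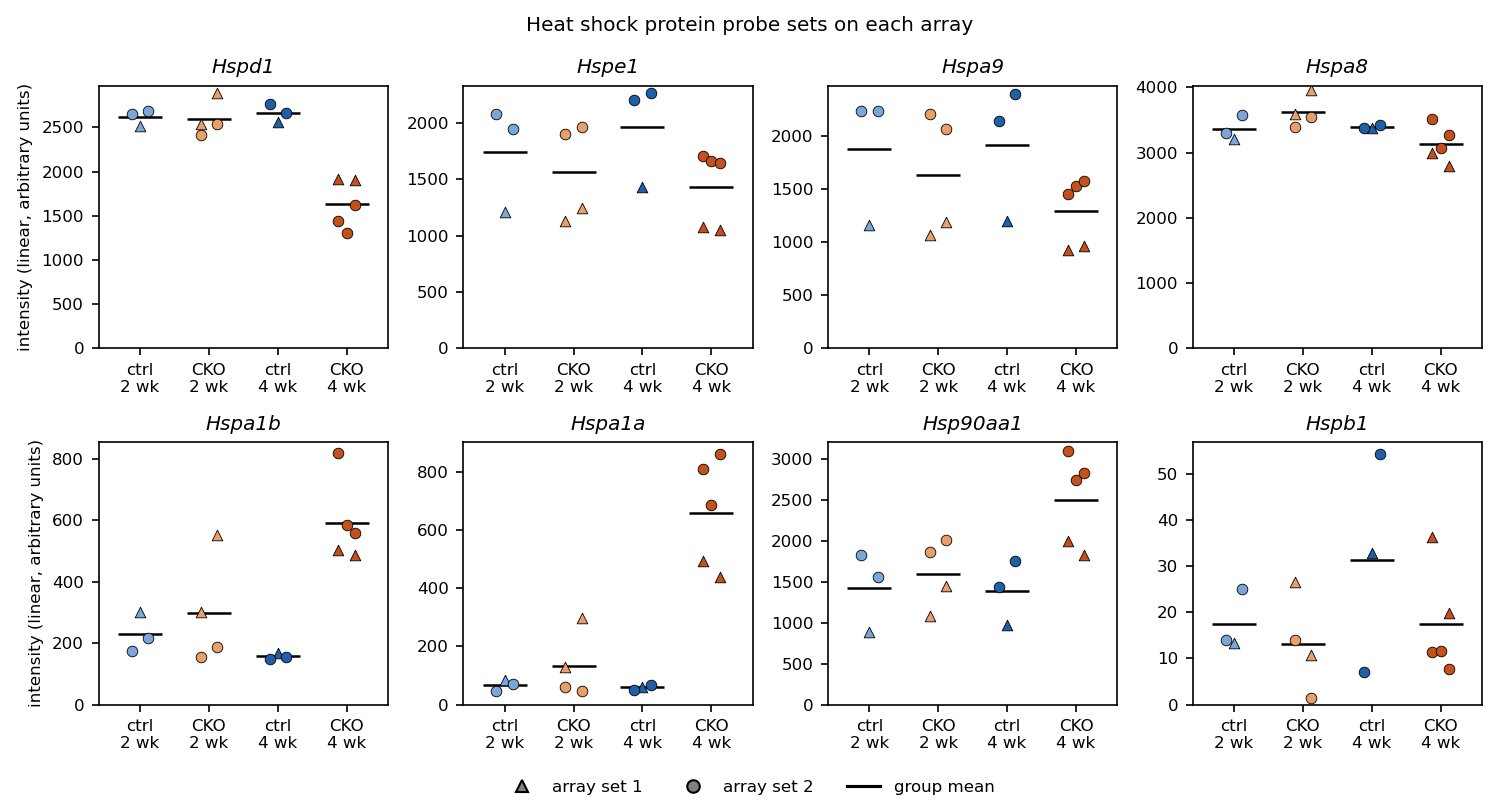
Linear intensity (arbitrary units, from 0) of the brightest probe set of the 7 measured heat shock genes and of Hspa1a on each of the 15 arrays; each point is 1 array, triangles are array set 1, circles array set 2, and lines are group means. Hspd1 lies at 1308 to 1914 on the 5 knockout arrays at 4 weeks and at 2416 or above on all other arrays, while Hspe1, Hspa9 and Hsp90aa1 are split by array set within every group.

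For Hspd1, the chaperonin barrel, intensities at 4 weeks were 2556, 2764 and 2665 in control hearts and 1914, 1902, 1440.0, 1308 and 1624 in knockout hearts. Every knockout array lay below every control array. The group means were 2661 ± 104 (SD, n = 3) and 1637 ± 271 (SD, n = 5), a difference of -0.71 ± 0.12 (SE), or 1.64-fold lower (adjusted p = 0.00172, limma). With array set as a block the difference was -0.72 ± 0.10 (adjusted p = 3.97e-05, limma). It was -0.42 within set 1 (adjusted p = 0.032) and -0.90 within set 2 (adjusted p = 4.14e-05), so the size differed between the sets while the direction and the call held in both. The other Hspd1 probe set was dimmer, between 111 and 241 on all arrays, and its groups overlapped at 4 weeks (0.17 ± 0.21, adjusted p = 0.852, limma over all probe sets). The mean of both probe sets gave -0.27 (adjusted p = 0.325, limma), so the call rests on the brighter one.

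Hspe1, the lid of the chaperonin, read 1432, 2202 and 2266 in 4-week control hearts and 1080.4, 1046, 1710.3, 1662 and 1643 in 4-week knockout hearts. The control array at 1432 and the knockout arrays at 1080.4 and 1046 belong to set 1, so the groups overlap over all arrays but not within either set. The means were 1967 ± 464 (SD, n = 3) and 1428 ± 334 (SD, n = 5), and the difference of -0.46 ± 0.26 did not pass over all arrays (adjusted p = 0.341, limma). With the array set as a block it was -0.42 ± 0.06 (adjusted p = 8.65e-05, limma), with -0.42 within set 1 (adjusted p = 0.0372) and -0.42 within set 2 (adjusted p = 0.00384).

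Hspa9, the matrix Hsp70, showed the same split. It read 1205, 2146 and 2400.4 in 4-week controls and 923, 967, 1454, 1531 and 1583 in 4-week knockouts, the first control and the first 2 knockout arrays being those of set 1. The means were 1917 ± 630 (SD, n = 3) and 1292 ± 320 (SD, n = 5), with a difference of -0.54 ± 0.32 (adjusted p = 0.374, limma) over all arrays. Blocked by array set the difference was -0.49 ± 0.08 (adjusted p = 0.000144, limma). It passed within set 2 (-0.57, adjusted p = 0.00072) and not within set 1 (-0.35, adjusted p = 0.0725), although no array overlapped between the groups in either set.

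In the cytosol, the constitutive Hsc70 gene Hspa8 stayed close to its control level. Its intensities at 4 weeks were 3374, 3372 and 3426 in control hearts and 2998, 2786, 3521, 3070.1 and 3265 in knockout hearts, with 1 knockout array above all controls and the other 4 below them. The means were 3391 ± 30.8 (SD, n = 3) and 3128 ± 278 (SD, n = 5), a difference of -0.12 ± 0.08 (adjusted p = 0.469, limma), and the blocked value was -0.12 ± 0.07 (adjusted p = 0.23).

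The inducible Hsp70 gene Hspa1b read 168, 149 and 153 in 4-week control hearts and 502, 487, 820.1, 585 and 557 in 4-week knockout hearts. The lowest knockout array was higher than the highest control array in both array sets. The means were 156.9 ± 10.2 (SD, n = 3) and 590.4 ± 135 (SD, n = 5), a difference of 1.79 ± 0.32, or 3.45-fold higher (adjusted p = 0.00205, limma). The blocked difference was 1.76 ± 0.27 (adjusted p = 0.00012), with 1.47 within set 1 and 1.98 within set 2. Hspa1a, which belongs to the list of other Hsp70 genes and encodes nearly the same protein, had a probe set of its own that was below the intensity of the tested genes on average. It read 61.9, 51.4 and 67.8 in 4-week controls and 494, 439, 813, 688 and 863 in 4-week knockouts, again with no overlap. Read from the fit to all 8251 genes, its difference was 3.10 ± 0.42 (adjusted p = 0.000406, limma). With controls this dim its size depends on the offset, being 3.39 with an offset of 1 and 2.50 with 64, so no fold is given. The probe sequences were not examined, so each probe set may detect both transcripts, and how much of the rise belongs to which gene is uncertain.

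Hsp90aa1, the inducible Hsp90, read 973, 1437 and 1749.6 in 4-week controls and 1996, 1829, 3089, 2743 and 2822 in 4-week knockouts. All knockout arrays were above all controls, and the lower values in each group were those of set 1. The means were 1387 ± 391 (SD, n = 3) and 2496 ± 551 (SD, n = 5), a difference of 0.85 ± 0.28, or 1.80-fold, that missed the threshold over all arrays (adjusted p = 0.0644, limma) and passed it without knockout 4 weeks replicate 2 or control 2 weeks replicate 3. Blocked by array set it was 0.90 ± 0.10 (adjusted p = 8.41e-06, limma), with 0.96 within set 1 and 0.86 within set 2. The other Hsp90aa1 probe set was dim, at 1.18 to 73.7 over all arrays, and showed -0.10 ± 0.41 at 4 weeks (adjusted p = 0.978, limma over all probe sets).

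Hspb1 was dim on every array. It read 32.8, 6.96 and 54.3 in 4-week controls and 36.3, 19.8, 11.5, 11.6 and 7.81 in 4-week knockouts, and its groups overlapped (-0.42 ± 0.37, adjusted p = 0.683, limma fit to all genes). No change in Hspb1 was detected, and a fall or a small change could be missed at these intensities. The dimmest tested gene averaged 183.9.

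**Figure D2:**
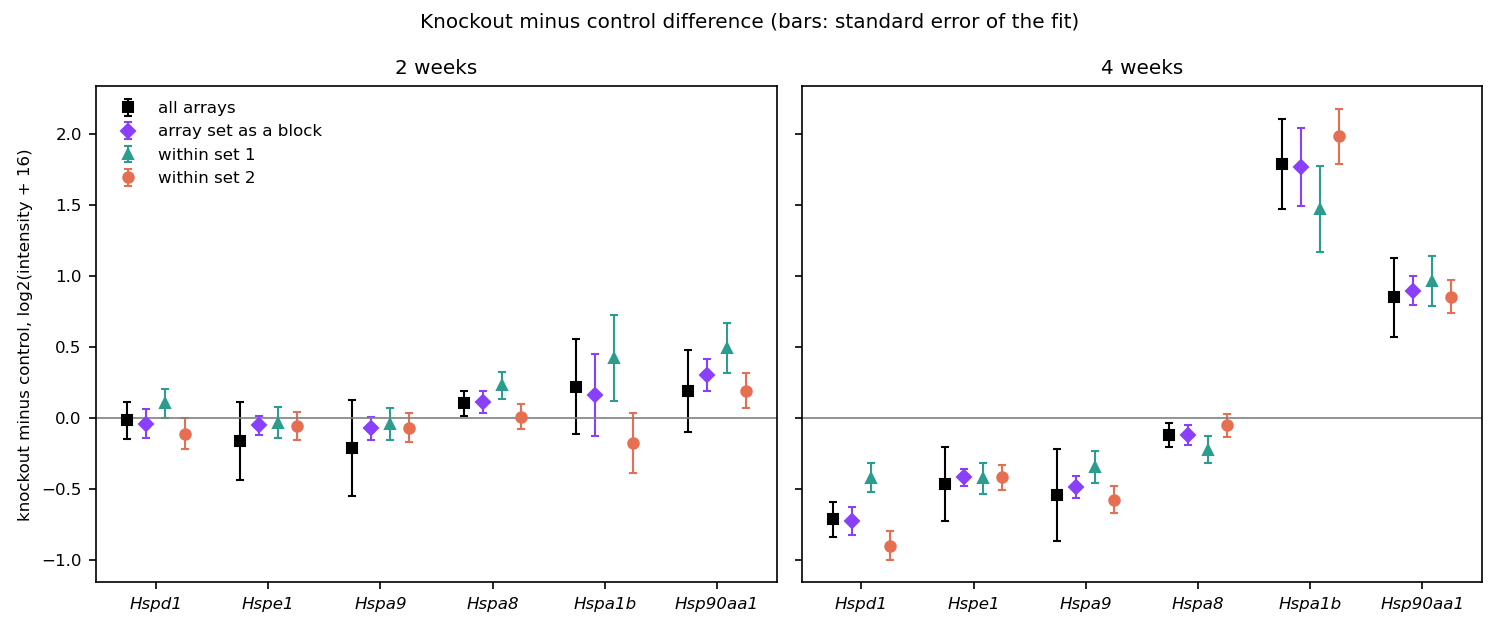
Knockout minus control difference of the 6 tested heat shock genes on the log2(intensity + 16) scale at 2 weeks (left) and 4 weeks (right); squares are the fit to all arrays, diamonds the fit with array set as a block, triangles and circles the values within set 1 and set 2, and bars are standard errors. At 4 weeks Hspd1, Hspe1 and Hspa9 lie below 0 and Hspa1b and Hsp90aa1 above it in all 4 readings, and none of the 6 passed at 2 weeks.

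Of the 6 tested members, 1 was called higher (Hspa1b) and 1 lower (Hspd1) at 4 weeks, where 11.2% of all tested genes were called, 6.59% higher and 4.61% lower. With array set as a block, 2 were called higher and 3 lower, against a background of 35.5% (23.2% higher, 12.2% lower). The groups did not overlap for 3 of the 6, and for 17.4% of all tested genes; within both array sets the groups did not overlap for 5, and for 40.8% of all tested genes, with 1 control against 2 knockout arrays in set 1. The median difference of the 6 was -0.29, beside 0.08 over all tested genes. The split of calls over all genes depends on the scaling: 326 were higher and 228 lower as deposited, 240 higher and 308 lower after quantile normalization, and 169 higher and 212 lower after median scaling.

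Markers of cell types were read in the same comparison. Of all tested genes 11.2% were called over all arrays and 35.5% with the block, and the endothelial counts below lie near these shares. Of 7 tested cardiomyocyte markers (genes of the cardiac sarcomere, calcium handling and myoglobin), 5 fell and none rose, and their summed intensity was 58220 to 61030 in 4-week controls and 46060 to 49420 in knockouts. All 8 tested fibroblast markers rose, with sums of 11100 to 12530 against 23680 to 31160. Smooth muscle and pericyte markers rose for 2 of 7 (4207 to 4961 against 6125 to 9577), endothelial markers for 1 of 7, atrial markers for 1 of 3 and skeletal muscle markers for 1 of 4 (1706 to 2567 against 6642 to 7728), while none of the 6 macrophage, 3 lymphocyte, 2 erythroid, 1 adipocyte and 1 lung markers passed over all arrays. None of these markers was at the floor of the files on all arrays, and none passed the test at 2 weeks. In the blocked fit, the counts of cardiomyocyte and fibroblast markers were the same, and more of the others passed: 4 of 7 smooth muscle and pericyte markers, 2 of 4 skeletal muscle markers, 1 lymphocyte and 1 erythroid marker were higher, and endothelial markers were split, 2 higher and 1 lower. The part of these cell types in the differences of the heat shock genes was not tested.

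At 2 weeks the same comparison, on younger hearts, called none of the 6 tested members in limma, with or without the block, and none had an unadjusted p under 0.05 over all arrays. The background was 0.0202% over all arrays and 0.0808% with the block. No member's groups were free of overlap, against 2.42% of tested genes. Hspd1 read 2649, 2689 and 2520.4 in 2-week controls and 2416, 2536, 2542 and 2889.6 in 2-week knockouts, with overlapping groups and a difference of -0.02 ± 0.13. Hspe1 read 2076, 1945 and 1211 in controls and 1905, 1967, 1125 and 1247 in knockouts (-0.16 ± 0.27; -0.05 ± 0.07 with the block). For Hspe1 the arrays at 1211, 1125 and 1247 were those of set 1, so the split within each group lay along the array sets.

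Hspa9 at 2 weeks read 2234, 2240.0 and 1162 in controls and 2207, 2068, 1070.0 and 1192 in knockouts (-0.21 ± 0.34; -0.07 ± 0.08 with the block). Hspa8 read 3306, 3579.9 and 3205 in controls and 3387, 3541, 3586 and 3962 in knockouts (0.10 ± 0.09). Neither separated the genotypes. Hspa1b read 175, 216 and 299.6 in controls and 155, 187, 299.6 and 550.4 in knockouts, with group means of 230.2 ± 63.5 (SD, n = 3) and 298.1 ± 179 (SD, n = 4) and a difference of 0.22 ± 0.33. The highest arrays of each group were those of set 1, and the difference was 0.42 within set 1 and -0.17 within set 2. Hspa1a behaved alike: 45.2, 71.3 and 83.9 in controls against 60.2, 47.1, 128 and 298 in knockouts (0.58 ± 0.44), the last knockout array being the highest for both genes.

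Hsp90aa1 at 2 weeks read 1826, 1553 and 883 in controls and 1855, 2005, 1083 and 1446 in knockouts. Within each array set every knockout array was above every control array, while 16.5% of all tested genes were separated in the same direction within both sets, and the difference of 0.19 ± 0.29 over all arrays and of 0.30 ± 0.11 with the block (adjusted p = 0.698, limma) did not pass. Hspb1 stayed dim at 1.34 to 26.7 over both 2-week groups.

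Whether the knockout effect differed between the ages was tested as the 4-week effect minus the 2-week effect. Over all arrays no member passed; 2 of the 6 had an unadjusted p under 0.05, Hspd1 at -0.69 ± 0.18 (adjusted p = 0.075) and Hspa1b at 1.57 ± 0.46 (adjusted p = 0.137, limma), with 1.56% of all tested genes called. With array set as a block 5 of the 6 were called, 2 upward and 3 downward, against 12.4% of all tested genes (7.17% upward, 5.27% downward). The blocked values for the mitochondrial genes were -0.68 ± 0.14 for Hspd1 (adjusted p = 0.00534), -0.37 ± 0.09 for Hspe1 (adjusted p = 0.0151) and -0.42 ± 0.11 for Hspa9 (adjusted p = 0.0232). Those of the inducible cytosolic genes were 1.60 ± 0.40 for Hspa1b (adjusted p = 0.0157, limma) and 0.59 ± 0.15 for Hsp90aa1 (adjusted p = 0.0183). The other Hspd1 probe set was at 0.31 ± 0.25 with the block, and that of Hsp90aa1 at 0.77 ± 0.41, neither called. Without knockout replicate 4 of 2 weeks, the array with the highest 2-week Hspa1b, the Hspa1b value over all arrays was 1.90 and was called (adjusted p = 0.0241, limma).

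From 2 to 4 weeks in control hearts, no member was called with or without the block; the background was 0.727% over all arrays and 5.92% with the block. Hspd1 averaged 2619 ± 88.0 (SD, n = 3) at 2 weeks and 2661 ± 104 (SD, n = 3) at 4 weeks. Hspa1b was lower on each of the 3 control arrays at 4 weeks than on each of the 3 at 2 weeks (-0.48 ± 0.36), a separation that 10.1% of tested genes showed in this comparison, and it was not called. None of the 6 had an unadjusted p under 0.05 in limma.

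From 2 to 4 weeks in knockout hearts, Hspd1 fell and Hspa1b rose. Hspd1 averaged 2596 ± 204 (SD, n = 4) at 2 weeks and 1637 ± 271 (SD, n = 5) at 4 weeks, a difference of -0.67 ± 0.11 (adjusted p = 0.00251, limma). It was the only member without overlap in this comparison, a separation that 9.98% of tested genes showed. The other Hspd1 probe set was at 0.095 ± 0.19 and was not called, and Hspd1 lost its call with the mean of its probe sets. Hspa1b differed by 1.09 ± 0.29 (adjusted p = 0.0406, limma), with overlapping groups, a value of 0.27 within set 1 and 1.82 within set 2. Its call was kept in 5 of 15 fits that each left out 1 array, those without control 4 weeks replicate 1, knockout 4 weeks replicate 2, control 2 weeks replicates 1 or 3, or knockout 2 weeks replicate 4, and the values ranged from 0.85 to 1.42. The background for 1 higher and 1 lower member of 6 was 6.57% (3.76% higher, 2.81% lower). With the block all 6 were called, Hspe1 at -0.18 ± 0.06 (adjusted p = 0.0256), Hspa9 at -0.38 ± 0.07 (adjusted p = 0.000827), Hspa8 at -0.22 ± 0.07 (adjusted p = 0.0248) and Hsp90aa1 at 0.58 ± 0.10 (adjusted p = 0.000353) being the 4 added, against 25.1% of tested genes (14.3% higher, 10.8% lower). These age comparisons use the same arrays as the knockout comparisons and are not independent of them.

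The partners of the members were read from 7 lists of related genes, 98 genes in all, of which 72 were measured and 58 tested. At 4 weeks 4 of the 58 rose and 3 fell, where 11.2% of all tested genes were called. With array set as a block 11 rose and 7 fell, where 35.5% of all tested genes were called. The shares of the lists thus lie near the background, and the median difference of the 58 was 0.02, beside 0.08 over all tested genes. At 2 weeks none of them passed in either fit.

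Among other mitochondrial chaperones and proteases, 1 of 9 tested genes fell at 4 weeks and none rose, where 11.2% of all tested genes were called. The median of the 9 was -0.17. The one that fell was Dnaja3, the mitochondrial Hsp40 that works with Hspa9 (-0.47 ± 0.14, adjusted p = 0.0447, limma); its call was kept in 4 of 15 fits that left out 1 array, and was lost under quantile normalization, with no filter on dim genes, over all probe sets and with only the groups compared. Its groups did not overlap: 1464, 1178 and 1300.1 in controls against 1109.5, 1021, 834, 859 and 915 in knockouts. With the block, Clpp, the protease subunit of the matrix (-0.58 ± 0.10, adjusted p = 0.00029, limma), and Phb2, a prohibitin of the inner membrane (-0.57 ± 0.07, adjusted p = 1.92e-05), also fell, where 35.5% of all tested genes were called. Grpel1, the nucleotide exchange factor of Hspa9, was at 0.21 ± 0.31 (adjusted p = 0.807, limma) and Lonp1, the matrix protease, at 0.27 ± 0.23 (adjusted p = 0.578). With the block Grpel1 was at 0.26 ± 0.11 (adjusted p = 0.0705, limma) and Lonp1 at 0.31 ± 0.12 (adjusted p = 0.0608), and neither passed. Grpel1 was at 0.48 within set 1 and 0.15 within set 2, and Lonp1 at 0.33 and 0.28.

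In the cytosolic Hsp70 system, 1 of 17 tested genes rose and 1 fell at 4 weeks, where 11.2% of all tested genes were called. The median of the 17 was -0.08. Bag3, a co-chaperone of Hsp70 in muscle, rose from 2082, 1971 and 2076 in controls to 2586, 2788, 3101, 2667 and 3020.0 in knockouts (0.47 ± 0.11, adjusted p = 0.0117, limma). Hsph1, an Hsp110 that exchanges nucleotide on Hsp70, read 458, 579 and 754 in controls and 359, 348, 255, 189.9 and 284 in knockouts. The difference was -1.02 ± 0.26 (adjusted p = 0.0184, limma), larger in size within set 2 (-1.40) than within set 1 (-0.36). At 2 weeks Hsph1 averaged 308 in controls and 382 in knockouts, and at 4 weeks 597 and 287. In control hearts it was thus higher at 4 than at 2 weeks, by 0.91 ± 0.29. That age difference passed only with the block (adjusted p = 0.0347, limma). Hsph1 lost its call without control 4 weeks replicate 2 or 3, and within set 1, and Bag3 without control 4 weeks replicate 2, under median scaling, and where each gene was read as the mean of its probe sets. The inducible Hspa1b and the co-chaperone Bag3 were thus higher in the hearts where Hsph1 was lower, and Dnajb1, an Hsp40 partner that is itself heat-inducible, was at 0.02 ± 0.18 (adjusted p = 0.983). Of the dim genes, Hspa2 rose besides Hspa1a (1.34 ± 0.35, adjusted p = 0.0274, limma fit to all genes), a call lost without control 4 weeks replicate 1 or 2 or knockout 4 weeks replicate 3 or 5, and under quantile normalization or median scaling. In the blocked fit, 2 of the 17 rose and 3 fell, where 35.5% of all tested genes were called. Besides Bag3 and Hsph1 these were Dnajb4 (0.47 ± 0.13, adjusted p = 0.009, limma), Dnajb2 (-0.45 ± 0.14, adjusted p = 0.0217) and Dnajc7 (-0.35 ± 0.10, adjusted p = 0.0121), all J-domain partners of Hsp70.

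Among Hsp90 co-chaperones, 1 of 9 tested genes fell and none rose over all arrays, where 11.2% of all tested genes were called. The median of the 9 was 0.18. In the blocked fit 1 of the 9 fell and 2 rose, where 35.5% of all tested genes were called. The 2 were Ppid, an Hsp90-binding cyclophilin (0.42 ± 0.13, adjusted p = 0.0163, limma), and Sugt1 (0.41 ± 0.09, adjusted p = 0.00237). The gene that fell in both fits was Fkbp4, the immunophilin that links Hsp90 to steroid receptors, which read 2138, 2310.2 and 2509 in 4-week controls and 746, 636, 567, 462 and 587 in 4-week knockouts. The difference was -1.94 ± 0.14 (adjusted p = 3.03e-06, limma), with -1.61 within set 1 and -2.14 within set 2, and it was the opposite of the direction of Hsp90aa1. It was called under all 32 alternatives, including each fit without 1 array. At 2 weeks Fkbp4 read 2164, 2445 and 1976 in controls and 1999, 1934, 1707 and 1795 in knockouts, and its effect differed between the ages over all arrays (-1.70 ± 0.21, adjusted p = 0.000998, limma).

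Of 4 tested small heat shock proteins besides Hspb1, Hspb2, a muscle-enriched member, rose from 1668, 2126 and 2155 to 2921, 2855, 4051, 3104 and 3936 (0.76 ± 0.14, adjusted p = 0.00355, limma), a call lost under median scaling (0.67) and with the mean of its probe sets (0.79). Cryab, αB-crystallin and the abundant small heat shock protein of heart muscle, was at -0.23 ± 0.14 (adjusted p = 0.405). With the block Cryaa, αA-crystallin, also rose (0.71 ± 0.18, adjusted p = 0.00522, limma). Of all tested genes 11.2% were called over all arrays and 35.5% with the block. Of 11 tested subunits of the cytosolic chaperonin and prefoldin, none passed over all arrays. With the block 3 rose, Tcp1, Cct3 and Cct8, and none fell, where 35.5% of all tested genes were called. Another Tcp1 probe set was at -0.32 over all arrays, and further Cct3 probe sets were at 0.51 and 0.46. None of these further probe sets was called.

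The transcript of Hsf4, a heat shock factor, read 924, 792 and 635 in 4-week controls and 841, 951, 904, 1436 and 613 in 4-week knockouts and did not pass (0.23 ± 0.26, adjusted p = 0.717, limma). Hsbp1, which binds heat shock factor trimers, was at 0.16 ± 0.22 (adjusted p = 0.781), and Hsf1 was not measured with a probe set of its own. Of 6 tested genes of the integrated stress response, 2 rose: Atf3, a stress-induced transcription factor (1.80 ± 0.28, adjusted p = 0.000786, limma), and Ddit3, which encodes CHOP (0.58 ± 0.15, adjusted p = 0.0191). Of all tested genes 11.2% were called, and the median of the 6 was 0.11, beside 0.08 over all tested genes. The others tested were Atf4 at 0.23, Asns at -0.03, Phgdh at -0.09 and Shmt2 at -0.02, none called in either fit. The dim genes Atf5 and Trib3 were at -0.02 and -0.26 and were not called either. For Atf3, 2 further probe sets gave 0.68 and 0.08 and were not called, and Ddit3 lost its call without control 4 weeks replicate 2, under quantile normalization or median scaling, and with only the groups compared in the fit. Among the dim genes of this list, Mthfd2, a mitochondrial folate enzyme, was also called (1.21 ± 0.34, adjusted p = 0.0404, limma fit to all genes), in 6 of 15 fits that left out 1 array and not with the mean of its probe sets. Psat1, a dim gene of serine synthesis, rose with the block (0.69 ± 0.20, adjusted p = 0.0202, limma fit to all genes).

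In the other comparisons the counts of list genes were again set beside the share of all tested genes called. The difference of the knockout effect between the ages called 1 of the 58 upward and 1 downward, Hspb2 at 0.90 ± 0.21 (adjusted p = 0.0484, limma; kept in 2 of 15 fits that left out 1 array) and Fkbp4, and 3 upward and 5 downward with the block (all tested genes, 1.56% and 12.4%). From 2 to 4 weeks in control hearts none was called over all arrays, and 4 rose and 2 fell with the block (all tested genes, 0.727% and 5.92%). From 2 to 4 weeks in knockout hearts 4 rose and 1 fell, and 12 rose and 9 fell with the block (all tested genes, 6.57% and 25.1%). The risers were Bag3 (0.71 ± 0.10, adjusted p = 0.000618, limma), Hspb2 (0.77 ± 0.13, adjusted p = 0.0031), Dnajb4, an Hsp40 (0.65 ± 0.15, adjusted p = 0.0177), and Hspb8, the small heat shock protein that binds Bag3 (0.53 ± 0.09, adjusted p = 0.00279), and Fkbp4 fell by 1.62. Dnajb4 lost its call without knockout 2 weeks replicate 3, under median scaling, with only the groups compared and within set 1, and Hspb8 under quantile normalization and with the mean of its probe sets. In control hearts the same age difference was 0.49 for Hspb8, 0.44 for Dnajb4, 0.31 for Bag3 and -0.13 for Hspb2. Of these only Hspb8 was called, with the block (adjusted p = 0.00107, limma). The knockout effect differed between the ages by 0.04 for Hspb8, 0.22 for Dnajb4 and 0.40 for Bag3, called in neither fit. Hspa1a, read from the fit to all genes, also rose in knockout hearts (2.43 ± 0.38, adjusted p = 0.00204, limma), by 1.18 within set 1, where it did not pass, and 3.53 within set 2, the same order of sets as for Hspa1b.

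**Figure D3:**
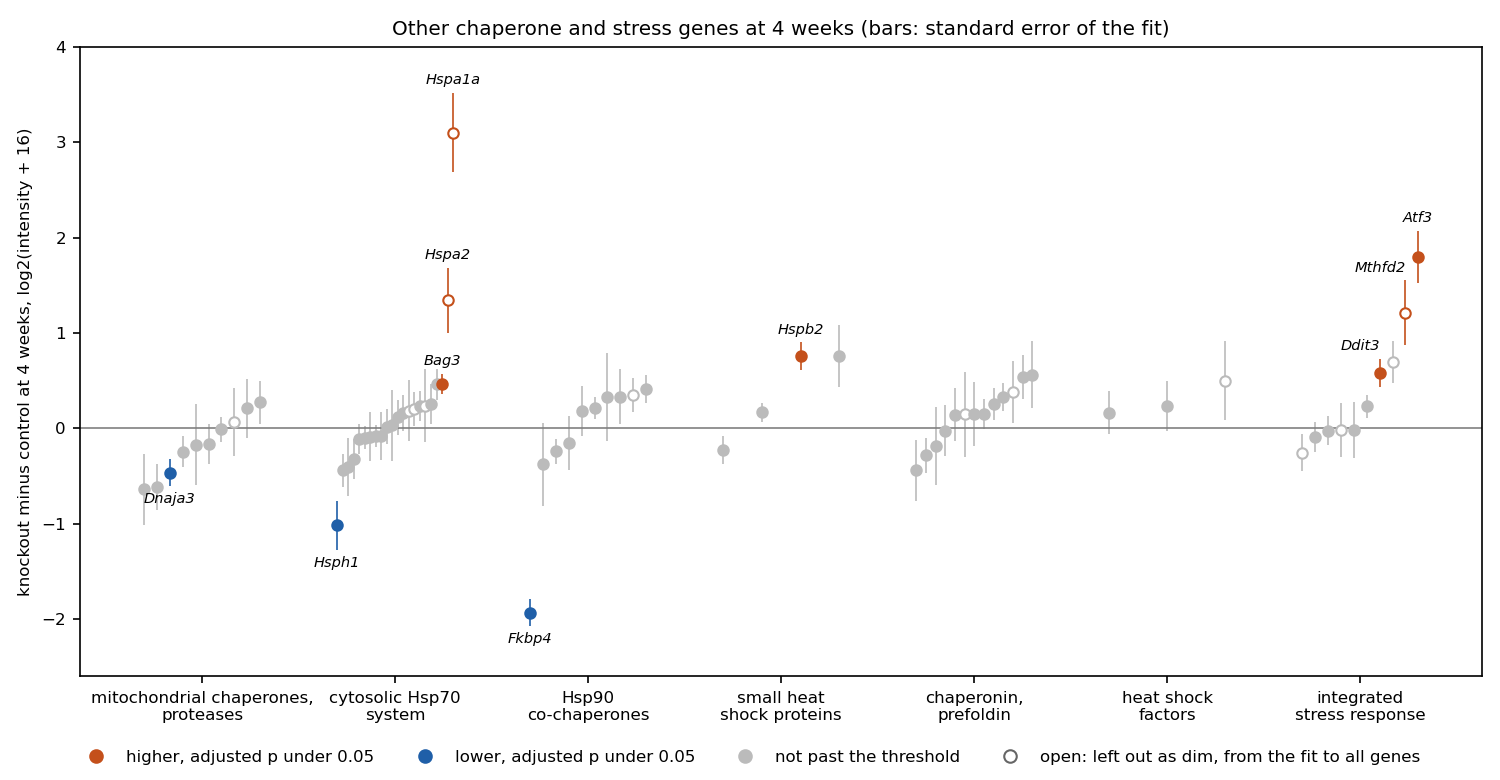
Knockout minus control difference at 4 weeks on the log2(intensity + 16) scale for the 72 measured genes of the 7 lists, sorted by value within each list; bars are standard errors of the fit, coloured points passed an adjusted p of 0.05, and open points were left out as dim and read from the fit to all genes. Hspa1a at 3.10 and Fkbp4 at -1.94 stand farthest from 0, and most other genes of each list did not pass.

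The mitochondrial members varied together across the 15 arrays once each array set's mean had been removed. Group differences were left in, so the values are not independent of the comparisons above and in part restate them. Pearson's r, here a description over arrays that share their groups and sets, was 0.956 between Hspd1 and Hspa9, 0.862 between Hspe1 and Hspa9 and 0.821 between Hspd1 and Hspe1. It was 0.848 between Hspa1b and Hsp90aa1. The mitochondrial genes ran against Hspa1b, at -0.82 to -0.89, and against Hsp90aa1, at -0.78 to -0.83. Hspa8 was at 0.42 to 0.54 with the mitochondrial genes, -0.17 with Hspa1b and -0.38 with Hsp90aa1.

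By the same measure, the tested genes most like Hspd1 were Atp2a2, the calcium pump of the sarcoplasmic reticulum (0.974), Fkbp4 (0.972) and Mlf1 (0.968). For Hspe1 they were Ndufa6, a subunit of respiratory complex I (0.974), Idh2, the mitochondrial NADP-dependent isocitrate dehydrogenase (0.953), and Gstp1 (0.95). For Hspa9 they were Qdpr (0.978), Car14 (0.976) and Neurl4 (0.975). Hspa8 had weaker neighbours, Pdhb at 0.844, Atp5pb at 0.836 and Kcna5 at 0.826. Hspa1b was closest to Arhgap35 (0.952), Smim14 (0.929) and Timp1, an inhibitor of matrix metalloproteinases (0.923), and Hsp90aa1 to Ccn2, a matricellular growth factor (0.981), Sypl (0.971) and Xirp1 (0.966). All these neighbours were ranked over the same arrays as the comparisons above.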

How the data were processed

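The deposited value table held linear intensities of 12422 probe sets on 15 single-channel arrays, with a lowest value of 0.95; RNA was labelled with biotin, per the labels. What software and scaling the authors applied is not stated in the labels or the table. The platform annotation gave 10833 probe sets 1 symbol, 396 several and 1193 none; 10817 of the first matched the RefSeq table of GRCm38.p6. Since the highest array median was 1.248 times the lowest, within the 1.25 allowed, the deposited scaling was kept. At most 0.0322% of values above the floor were equal between any pair of arrays.

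Values were analysed as log2(intensity + 16) in R 4.3.3 with limma 3.58.1, with 1 probe set per gene (the brightest with a single symbol, 8251 genes), the dimmest 40% left out (4950 tested), an intensity trend, all 4 groups in the fit and Benjamini-Hochberg adjustment. Dim genes were read from the fit to all 8251 genes, further probe sets from a fit to all 12422. The code was tested on simulated data. The number of arrays limits the precision. Array sets were found from correlations. Replicate numbers were not used to pair the arrays in the main fit. Over 19 pairs of equal numbers, correlations of deviations ran from -0.819 to 0.889, with 12 at or under 0.1. The positive pairs joined arrays of the same array set and the negative pairs arrays of different sets. The check therefore cannot tell pairing from array set.

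The members, lists and tests were chosen with earlier results of these data known. Named were all members, the list genes called in a comparison, those called with the block at 4 weeks, the 3 genes most like each member, Mnat1, and, chosen after their values were seen, Grpel1, Lonp1, Dnajb1, Cryab, Hsf4, Hsbp1, Atf4, Atf5, Asns, Phgdh, Shmt2 and Trib3. Alternatives tried were other scalings, pseudocounts, filters, probe set rules, variance models, blocks and leaving out each array.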

Additional observations from a re-analysis of the deposited data

Results flagged for a closer look

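For 5 heat shock genes the knockout effect differed between 4 and 2 weeks by a test of the difference itself, in limma with array set as a block, and none of them passed that test over all arrays without the block. On the log2(intensity + 16) scale the 4-week effect minus the 2-week effect was -0.68 for Hspd1, -0.37 for Hspe1 and -0.42 for Hspa9, the chaperones of the mitochondrial matrix, and 1.60 for Hspa1b and 0.59 for Hsp90aa1, the inducible cytosolic chaperones. With the block 12.4% of all tested genes passed the same test. The second probe sets of Hspd1 and Hsp90aa1, at 0.31 and 0.77 with the block, did not pass. Over 18 sets of values, each a probe set of the members in a knockout group of 4 or 5 arrays, no array stood apart from its group by Dixon's criterion.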

How the results depend on the processing

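Over 32 alternatives and 53 results, 1644 of 1687 values kept their sign; the 43 that turned were called in neither fit, while 95 lost their call and 58 gained one. Hspa1b at 4 weeks was called in all 32 (1.47 to 1.98), Hspd1 in 31 (-0.90 to -0.27, lost with the mean of its probe sets), Hsp90aa1 in 9, Hspe1 in 5, Hspa9 in 4 and Hspa8 in 1 (block with quantile normalization, -0.17, adjusted p = 0.0332, limma). Members called at 4 weeks, 2 as deposited, numbered (all tested genes in parentheses) 1 with the mean of a gene's probe sets (11.0%), 5 with array set as a block (35.5%), 4 within set 1 (23.6%), 5 within set 2 (29.0%), 6 with the block and quantile normalization (35.1%), and 5 with array set and inferred sex as blocks (31.6%); leaving out 1 array gave 2 to 3, with 3 without knockout 4 weeks replicate 2 or control 2 weeks replicate 3. For the difference between the ages, 0 members over all arrays became 3 with array weights (12.9%), 5 with the block (12.4%), 4 within set 2 (7.23%), 5 with block and quantile normalization (13.1%), 5 with set and sex (9.09%), and 0 to 1 without 1 array. From 2 to 4 weeks in knockout hearts, 2 became 1 with no filter (4.35%) or the mean of probe sets (6.28%). The count was also 1 with all probe sets (3.33%), only the groups compared (3.98%) and the replicate number as a block (3.05%). It became 6 with the array set block (25.1%), 4 within set 2 (18.3%) and 6 with block and quantile normalization (26.1%). Set and sex as blocks gave 5 (22.6%), and leaving out 1 array gave 1 to 2. The causes were not tested. The replicate block left 2 members called at 4 weeks (6.38% of all tested genes) and ended the 4-week calls of Hsph1, Bag3, Dnaja3, Hspa2, Ddit3 and Mthfd2. For the 2-week comparison and the control age comparison no alternative called enough members to change the count. Hspb1 and the second Hsp90aa1 probe set were dim on every array, which limits what they can show. The second Hspd1 probe set read 111 to 241, and why it differed from the brighter one was not tested.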
